A study of Mus musculus with 19 samples.

Results

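The genes described here encode 9 proteins that move sodium and chloride across epithelia, or that set how fast this happens: the chloride channel Cftr, the calcium-activated chloride channels Ano1 and Ano2, the sodium channel subunits Scnn1a, Scnn1b and Scnn1g, the kinase Sgk1, the sodium pump subunit Atp1b1 and the cotransporter Slc12a2. They were matched by gene symbol to the deposited gene identifiers, and all 9 were found among 49089 genes. Levels are given as CPM, the usual counts-per-library-size unit, in which the reads of a gene are divided by the TMM-scaled total of its library. Of the 9 genes, 8 were tested and Scnn1g was too low: the filter asked for 3 CPM or more in 3 or more of the 19 libraries and left 17222 genes.

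RNA from the endometrium, the inner lining of the uterus, was sequenced in wild-type C57Bl/6 female mice. The estrus group (CONT, 3 libraries numbered 1, 2 and 4) came from untreated, unmated females. All other females were mated with Balb/c males and their tissue was taken on day 3.5 post-coitum (pc), shortly before the embryo attaches; the study's methods give an age of 8 to 14 weeks for mated females. The INT group (4 libraries) followed mating with intact males, and the SVX, SVX_VAS and VAS groups (4 libraries each) followed mating with surgically modified males. These 3 groups are called here by the names of their count columns, because the sample titles name other operations: vasectomised for SVX, seminal vesicle-deficient for SVX_VAS and both operations for VAS. Which operation each had therefore cannot be told apart from the labels. Whether embryos were present in each of these 3 groups is not given in the sources used here. Each library was a pool, and the number of animals per pool is not given in the sources used here, so p-values measure the spread between pools. Total counts ran from 15487788 to 31781270 in estrus, 14201095 to 17420572 in INT, 12661266 to 13799614 in SVX, 13789824 to 20525568 in SVX_VAS and 14040286 to 18258677 in VAS.

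The fluid in the uterine cavity is made and taken up again by the epithelium that lines it. Chloride enters these cells from the blood side through Slc12a2 and leaves into the cavity through Cftr or the anoctamins, and sodium and water follow. Sodium is taken back from the cavity through the epithelial sodium channel (ENaC) and is removed on the blood side by the sodium pump. In rodents the cavity is known to be filled with fluid under estrogen and to be closed down under progesterone before implantation.

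VAS replicates 2 and 3 stood apart from the other libraries before any gene of this set was considered. Malat1, a nuclear non-coding RNA, was at 545 and 544 CPM there and at 8210 to 13963 CPM in every other library. Their 8-gene stroma list summed to 1707 and 1811 CPM and their 5-gene neutrophil list to 48.6 and 59.9 CPM, which was the highest of all libraries. Values for VAS are therefore given with and without these libraries where a call, a direction or the size changed by much. Among the marker lists, the 10 epithelial genes summed to 4296 to 5819 CPM in estrus and 862 to 2870 CPM in INT, with 685 to 2535 CPM in the other mated groups. Endothelium ran the other way, at 174 to 256 CPM in estrus and 662 to 988 CPM in INT. The glandular list was at 72.4 to 91.5 CPM in estrus and 106 to 389 CPM in INT, stroma at 4810 to 5077 and 6809 to 8418 CPM, and smooth muscle at 346 to 772 and 866 to 1493 CPM. Macrophage genes summed to 113 to 184 CPM in estrus and 173 to 228 CPM in INT, neutrophil genes to 14.1 to 16.2 and 9.58 to 16.1 CPM, proliferation genes to 1109 to 1915 and 638 to 1325 CPM, and red blood cell genes to 27.1 to 39.0 and 54.9 to 95.4 CPM. In SVX, SVX_VAS and VAS, the endothelial list summed to 885 to 1093, 755 to 1071 and 559 to 1076 CPM, the glandular list to 95.2 to 496, 90.5 to 129 and 111 to 166 CPM, and stroma to 6559 to 7308, 6105 to 7699 and 1707 to 8102 CPM. Smooth muscle was at 846 to 1279, 976 to 1263 and 501 to 1223 CPM in these groups, macrophage genes at 187 to 268, 192 to 219 and 170 to 247 CPM, and neutrophil genes at 8.60 to 12.4, 9.63 to 17.1 and 14.03 to 59.9 CPM. Proliferation genes were at 736 to 1331, 545 to 887 and 563 to 1658 CPM, and red blood cell genes at 75.1 to 84.9, 60.7 to 72.0 and 32.3 to 105 CPM. No marker of these lists was at 0 in a whole group. In bulk RNA, fewer cells of a type and less RNA per cell cannot be told apart, and the part of these shifts in the results below was not tested.

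Against estrus, Ano1, Ano2, Scnn1a and Atp1b1 were higher in all 4 mated groups, and no tested member was called in opposite directions in different groups. Called means a Benjamini-Hochberg adjusted p of 0.05 or less in edgeR's quasi-likelihood test and a change of at least 1.5-fold. In INT, 4 of the 8 tested members were called higher and 0 lower, where 33.6% of all genes tested were called (20.9% higher and 12.7% lower). In SVX, 4 were called higher and 3 lower (41.5% of all genes, 23.1% higher and 18.4% lower). In SVX_VAS, 4 were called higher and 2 lower (38.5% of all genes, 22.1% higher and 16.4% lower), as in VAS, where the share of all genes was 40.4% (23.2% higher and 17.2% lower). Ano2 and Scnn1a were under 3 CPM in every estrus library and so passed the filter through mated libraries alone. For them a fall from estrus could hardly have been called, and their place among the members called higher has to be read with that. The 4 comparisons share the same 3 estrus libraries, so they are not independent of each other. In each of them 7 of the 8 members had no overlap between the mated and the estrus libraries, beside 62.3% of all genes in INT, 70.9% in SVX, 67.5% in SVX_VAS and 55% in VAS. The member whose ranges overlapped was Scnn1b in each case.

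**Figure D1:**
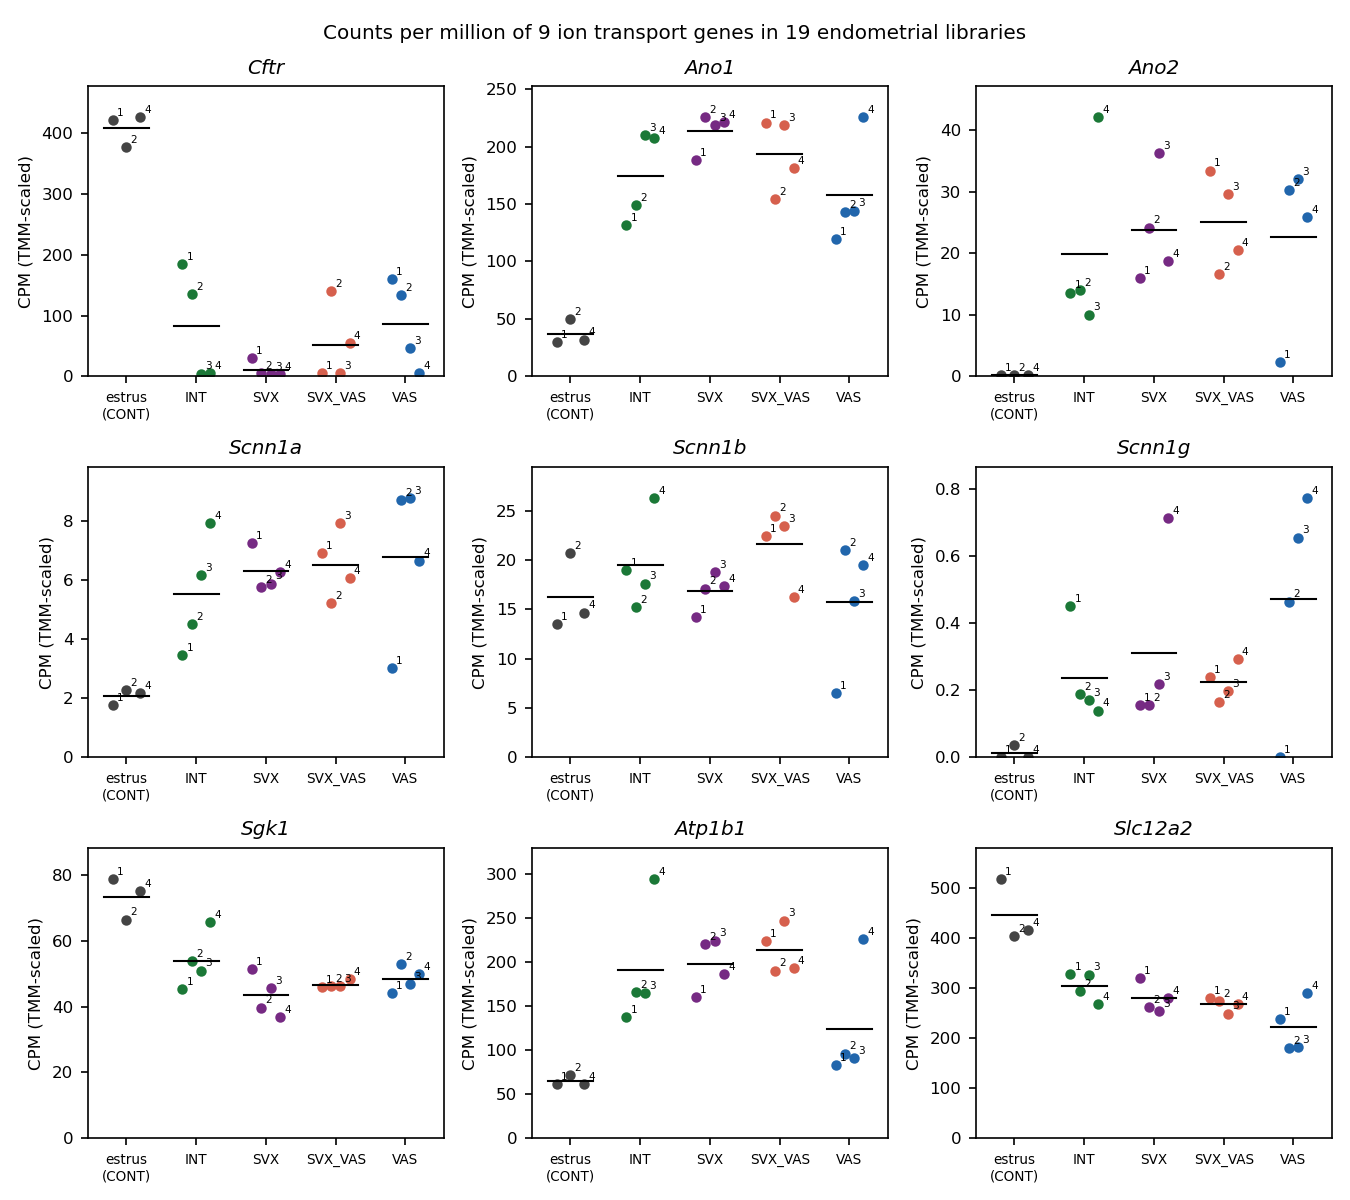
CPM (TMM-scaled) of each of the 9 genes in the 19 libraries, by group, with 1 point per library, its replicate number beside it and a bar at the group mean. Cftr, Sgk1 and Slc12a2 lie lower in all 16 mated libraries than in any estrus library, Ano1, Ano2, Scnn1a and Atp1b1 lie higher in all 16, and Scnn1b overlaps.

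**Figure D2:**
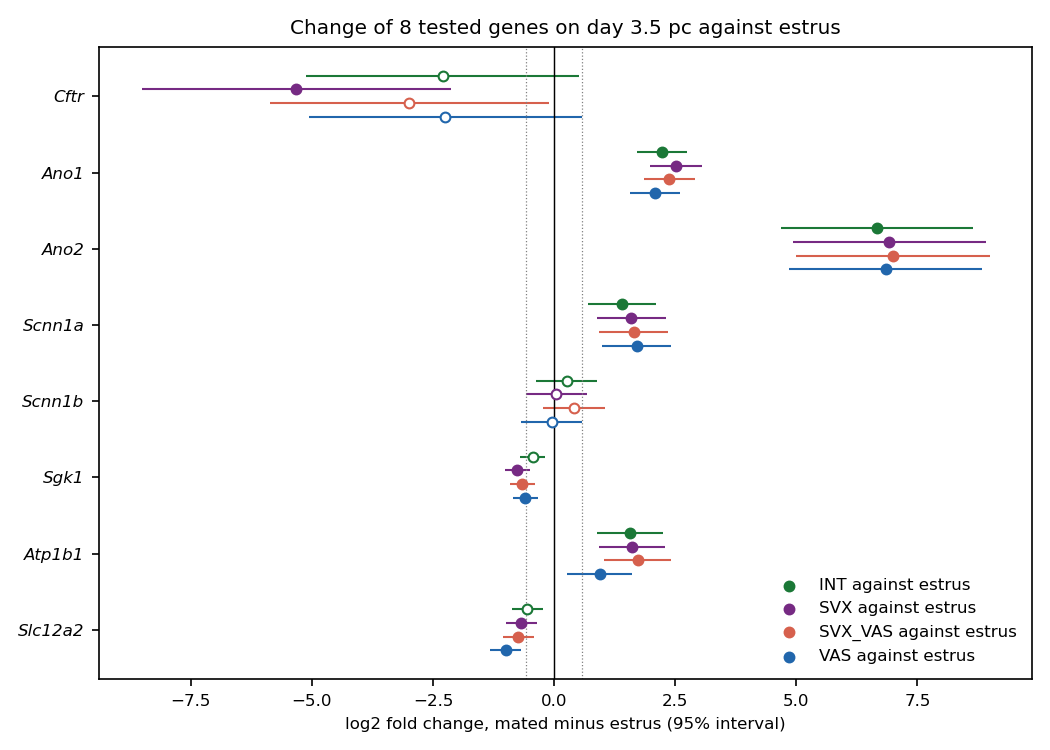
Fitted log2 fold change of the 8 tested genes in each mated group against estrus, with bars for the 95% interval, filled symbols for called changes, open symbols for changes not called and dotted lines at a 1.5-fold change. The Cftr intervals are the widest, and the estimates for Ano2 run from 6.66 to 6.99.

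Cftr, the cAMP-activated channel that lets chloride and bicarbonate out of epithelial cells, lies on chromosome 6 (GRCm38, 18170687 to 18322768, plus strand) with 7765 exonic bases. The RefSeq window around its start (GRCm38.p6, chr6:18170437-18170736, plus strand) is shown because this gene had the widest range of levels between mated libraries of the members tested. Capitals mark matches to 8 searched motifs, here only the GC box.

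Cftr: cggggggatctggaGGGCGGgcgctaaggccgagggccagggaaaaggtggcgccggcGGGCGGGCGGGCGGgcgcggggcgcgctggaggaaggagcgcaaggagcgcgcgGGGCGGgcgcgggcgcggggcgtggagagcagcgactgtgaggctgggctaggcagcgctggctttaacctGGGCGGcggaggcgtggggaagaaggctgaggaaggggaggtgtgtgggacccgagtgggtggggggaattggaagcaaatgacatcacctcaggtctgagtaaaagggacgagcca

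The 8 motifs were searched on both strands. The full estrogen response element, GGTCANNNTGACC, was held by 0.07% of the 32851 RefSeq windows of 300 bases, and its first arm, GGTCA, by 40.5%. The full element of the progesterone and glucocorticoid receptors, AGAACANNNTGTTC, was held by 0.0487%, and its outer arm, TGTTCT, by 19% of these windows. The cAMP element, TGACGTCA, was held by 1.79%, and its first bases, TGACG, by 20.8%. The GC box was searched as GGGCGG and was in 35.7% of all windows, whereas the TATA box, searched as TATAAA, was in 13.6%. An arm can lie inside its full element, and GC boxes can overlap each other. The Cftr window held 6 GC boxes, of which 3 overlapped each other, and had a GC content of 71.3%, where the median of all windows was 52.7%. Windows were found for 7 of the 9 members, 14 in all, and none held the full estrogen element. Such a match is a description of letters and says nothing about binding.

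In estrus, Cftr was at 421, 377 and 427 CPM in replicates 1, 2 and 4. In INT it was at 185 and 136 CPM in replicates 1 and 2, and at 4.53 and 5.98 CPM in replicates 3 and 4. Every INT library was below every estrus library, and the INT libraries were far apart from each other. SVX had 29.6, 4.69, 3.27 and 3.49 CPM, with replicate 1 above the others. SVX_VAS had 5.23, 141, 4.91 and 54.3 CPM, and VAS had 160, 134, 45.9 and 5.19 CPM. All 16 mated libraries were thus below estrus, but they ranged from 3.27 to 185 CPM, a 56.6-fold span. Within a group the highest library was 40.8 times the lowest in INT, 9.04 times in SVX, 28.7 times in SVX_VAS and 30.8 times in VAS.

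The Cftr change from estrus was called in SVX alone, with a log2 fold change of -5.32 ± 1.51 (SE; edgeR adjusted p = 0.00653), and it became -6.74 without SVX replicate 1. In INT the estimate was -2.30 ± 1.33 (adjusted p = 0.169, 95% interval -5.13 to 0.52; -3.07 without INT replicate 1), in SVX_VAS -2.99 ± 1.36 (adjusted p = 0.0747) and in VAS -2.24 ± 1.33 (adjusted p = 0.160). These 3 changes were not called, although no mated library reached the estrus range. The SVX_VAS change was called with DESeq2 (adjusted p = 0.0374), with limma-voom (0.0371), with a fit of the 2 groups alone (0.0417) and without SVX_VAS replicate 2 (-4.26, adjusted p = 0.0297).

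Cftr was set beside the epithelial and the hormone-response lists in the same libraries. The 10 genes of the estrogen-response list, among them Ltf, the milk protein lactotransferrin that estrogen induces in the uterus, summed to 15521 to 18211 CPM in estrus. In INT they summed to 11886 and 4616 CPM in replicates 1 and 2, and to 247 and 283 CPM in replicates 3 and 4, which is the same division as for Cftr. In SVX the list was at 734 CPM in replicate 1 and 221 to 261 CPM in the others. In SVX_VAS it was at 11623 and 1684 CPM in replicates 2 and 4, and at 261 and 256 CPM in replicates 1 and 3. In VAS it was at 3705, 1403 and 697 CPM in replicates 1, 2 and 3, and at 222 CPM in replicate 4. The libraries with the higher Cftr in each mated group were also those with the higher estrogen-response sum. In INT the epithelial list was likewise higher in replicates 1 and 2 (2870 and 2416 CPM) than in replicates 3 and 4 (862 and 1219 CPM). In SVX_VAS it was at 2291 and 1628 CPM in replicates 2 and 4, beside 1084 and 1121 CPM in replicates 1 and 3. In SVX replicate 1 it was at 1247 CPM, beside 932 to 1033 CPM in the others. In VAS it was at 2535, 860, 685 and 1019 CPM in replicates 1, 2, 3 and 4. The 10-gene progesterone-response list was at 408 to 501 CPM in estrus, 877 to 1345 in INT, 1160 to 1402 in SVX, 1169 to 1476 in SVX_VAS and 750 to 1427 CPM in VAS, and its lowest mated library was VAS replicate 1.

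**Figure D3:**
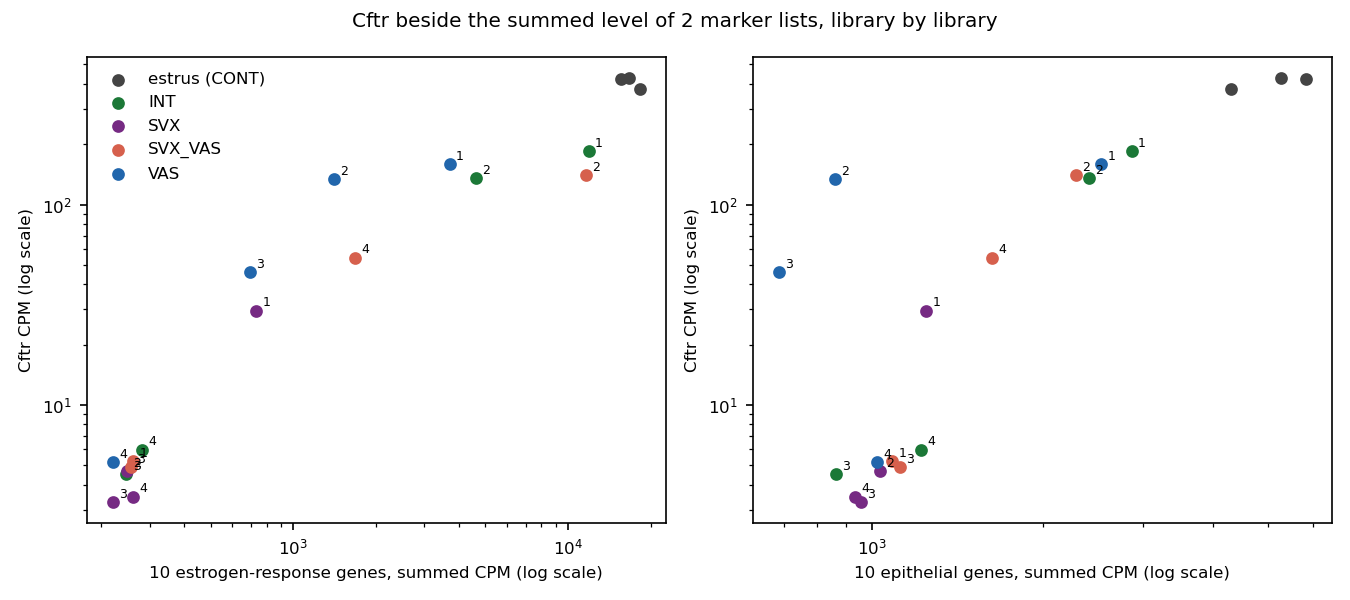
Cftr CPM in each library (log scale) against the summed CPM of 10 estrogen-response genes (left, log scale) and of 10 epithelial genes (right, log scale), with 1 point per library, coloured by group, and replicate numbers beside the mated libraries. On the left, INT replicates 3 and 4 sit at 247 and 283 CPM of the list with 4.53 and 5.98 CPM of Cftr, and INT replicates 1 and 2 sit at 11886 and 4616 CPM of the list with 185 and 136 CPM of Cftr.

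Relative to the summed epithelial list, Cftr was also lower in most mated libraries. Per 1000 CPM of that list it was at 72.4 to 87.7 CPM in estrus, at 4.91 to 64.4 in INT, at 3.43 to 23.7 in SVX, at 4.38 to 61.5 in SVX_VAS and at 5.10 to 156 in VAS. The 1 mated library above estrus was VAS replicate 2, which is among the libraries that stood apart, and without VAS replicates 2 and 3 the VAS values were 63.0 and 5.10. Cftr shares 129 exonic bases (1.66% of its own) with the antisense gene Gm15592, and the strand setting of the counting is not given in the sources used here.

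Ano1, a channel that opens for chloride when calcium rises in the cell, lies on chromosome 7 (144588549 to 144751974, minus strand). Its RefSeq window (GRCm38.p6, chr7:144738524-144738823, minus strand) is shown as that of a gene that rose in every mated group. The window lies around a start inside the gene as it was counted. Capitals mark 4 GC boxes and 2 GGTCA matches, the latter read as TGACC on the opposite strand.

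Ano1: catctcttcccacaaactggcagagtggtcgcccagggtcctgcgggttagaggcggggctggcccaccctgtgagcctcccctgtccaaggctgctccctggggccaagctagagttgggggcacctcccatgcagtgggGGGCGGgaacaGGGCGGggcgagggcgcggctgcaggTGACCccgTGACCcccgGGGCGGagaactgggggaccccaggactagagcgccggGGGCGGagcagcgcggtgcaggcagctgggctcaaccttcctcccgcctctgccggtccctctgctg

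In estrus, Ano1 was at 29.8, 49.9 and 32.02 CPM. INT libraries had 132, 149, 210 and 207 CPM, SVX 188, 226, 219 and 221 CPM, SVX_VAS 221, 154, 218 and 182 CPM, and VAS 120, 143, 144 and 225 CPM. The lowest mated library, VAS replicate 1, was above the highest estrus library. Ano1 rose by a log2 fold change of 2.23 ± 0.25 in INT (4.68-fold; edgeR adjusted p = 6.22e-06), 2.52 ± 0.25 in SVX, 2.38 ± 0.25 in SVX_VAS and 2.08 ± 0.25 in VAS, with no adjusted p above 6.87e-06 in the 4 comparisons. The highest-to-lowest ratio over all 16 mated libraries was 1.88, against 56.6 for Cftr. In INT, Ano1 was lower in replicates 1 and 2, where Cftr was higher, than in replicates 3 and 4.

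Ano2, the other calcium-activated chloride channel of the set, lies on chromosome 6 (125690419 to 126040126, plus strand) and had the highest fitted fold change of the members. Its first RefSeq window (GRCm38.p6, chr6:125690169-125690468, plus strand), which starts at the same base as the counted gene, is shown to set it beside the Ano1 window, and it held none of the searched motifs.

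Ano2: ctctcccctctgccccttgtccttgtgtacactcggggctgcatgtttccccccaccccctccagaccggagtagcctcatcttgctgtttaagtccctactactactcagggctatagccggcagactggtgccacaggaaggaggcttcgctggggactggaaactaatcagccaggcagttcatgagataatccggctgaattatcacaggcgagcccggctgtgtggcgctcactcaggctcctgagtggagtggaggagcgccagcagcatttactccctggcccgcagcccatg

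Estrus libraries held 4, 5 and 2 reads of Ano2, or 0.236, 0.178 and 0.151 CPM. INT libraries had 13.6, 13.96, 10.03 and 42.1 CPM, SVX 15.9, 24.1, 36.3 and 18.7 CPM, SVX_VAS 33.4, 16.6, 29.5 and 20.5 CPM, and VAS 2.30, 30.3, 32.01 and 25.8 CPM. All mated libraries were above estrus, and VAS replicate 1 was the lowest of them with 41 reads. Ano2 thus passed the filter through mated libraries alone, and a fall from estrus could hardly have been called. The log2 fold change was 6.66 ± 0.94 in INT (edgeR adjusted p = 3.90e-05, 95% interval 4.68 to 8.64), 6.92 ± 0.94 in SVX, 6.99 ± 0.94 in SVX_VAS and 6.85 ± 0.94 in VAS, and its size rests on the few estrus reads. It was 5.99 without INT replicate 4, and in VAS it was 6.17 without VAS replicates 2 and 3. With limma-voom the rise was called in none of the 4 comparisons (estimates 6.28, 6.74, 6.84 and 6.23, adjusted p 0.233, 0.186, 0.182 and 0.199). The study, which used limma-voom and edgeR, listed Ano2 among its most upregulated genes on day 3.5 pc against estrus. Per kilobase of exon, the level of Ano1 was 109 to 241 times that of Ano2 in estrus and 3.89 to 45.0 times in the mated libraries, and these ranges did not overlap. The mated upper end was VAS replicate 1, and the next highest ratio was 18.1.

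ENaC is built from the alpha, beta and gamma subunits encoded by Scnn1a, Scnn1b and Scnn1g, and of these Scnn1a and Scnn1b could be tested and Scnn1a was called against estrus. Scnn1a, whose product is needed for a conducting channel, lies on chromosome 6 (125320659 to 125344943, plus strand). In estrus it was at 1.77, 2.28 and 2.18 CPM. INT had 3.46, 4.51, 6.18 and 7.93 CPM, SVX 7.27, 5.78, 5.89 and 6.26 CPM, SVX_VAS 6.91, 5.23, 7.93 and 6.07 CPM, and VAS 3.02, 8.71, 8.78 and 6.66 CPM. No mated library fell into the estrus range, and VAS replicate 1 and INT replicate 1 were the lowest mated libraries. The log2 fold change was 1.40 ± 0.33 in INT (2.65-fold; edgeR adjusted p = 0.00250), 1.59 ± 0.34 in SVX, 1.65 ± 0.33 in SVX_VAS and 1.70 ± 0.34 in VAS, and 1.24 in VAS without replicates 2 and 3. All estrus values lay under the 3 CPM of the filter. Scnn1a was therefore tested through its mated libraries alone, and a fall from estrus could hardly have been called.

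Scnn1b lies on chromosome 7 (121865038 to 121918514, plus strand), 96562 bases after the end of Scnn1g. In estrus it was at 13.5, 20.7 and 14.7 CPM, and INT had 19.01, 15.3, 17.6 and 26.3 CPM. SVX had 14.2, 17.1, 18.7 and 17.4 CPM, SVX_VAS 22.5, 24.5, 23.4 and 16.2 CPM, and VAS 6.55, 21.0, 15.8 and 19.5 CPM. Of the 16 mated libraries, 5 were above all estrus libraries and 1, VAS replicate 1, was below them. The estimates were 0.26 ± 0.30 in INT (edgeR adjusted p = 0.515, 95% interval -0.38 to 0.89), 0.05 ± 0.30 in SVX, 0.41 ± 0.30 in SVX_VAS and -0.054 ± 0.30 in VAS (-0.30 without VAS replicates 2 and 3), and each interval spanned changes in both directions. Per 1000 CPM of the epithelial list, Scnn1b was at 2.32 to 4.82 CPM in estrus and at 2.59 to 24.5 CPM in the mated libraries, with a mated median of 18.9, and VAS replicate 1 was the 1 mated library within the estrus range. Per kilobase of exon, Scnn1b was at 10.6 to 14.2 times the level of Scnn1a in estrus and at 2.83 to 8.63 times in the mated libraries, with no overlap.

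Scnn1g (chromosome 7, 121734479 to 121768475, plus strand) was near the limit of detection everywhere. Estrus libraries held 0, 1 and 0 reads, and a count of 0 allows up to 0.177 CPM in replicate 1 and 0.226 CPM in replicate 4, by counting error alone. INT held 6, 3, 3 and 2 reads, SVX 2, 2, 3 and 10, SVX_VAS 5, 3, 3 and 4, and VAS 0, 10, 14 and 11. These levels did not pass the filter, so no test and no fold change are given. VAS replicate 1 also held no read, and several mated values, such as 0.139 and 0.170 CPM in INT, were below what a count of 0 allows in estrus. Scnn1g was thus the lowest of the 3 ENaC subunits in each group, at a mean of 0.0792 CPM per kilobase in INT beside 1.34 for Scnn1a and 7.43 for Scnn1b.

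Sgk1, a kinase that steroid hormones induce and that keeps ENaC at the cell surface, lies on chromosome 10 (21882184 to 21999903, plus strand). It has 6 RefSeq windows, and the one shown lies at chr10:21993640-21993939 (GRCm38.p6, plus strand). Of the 14 member windows searched, it alone held the full progesterone and glucocorticoid element. The stretch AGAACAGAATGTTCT has inverted-repeat arms around a spacer and matches AGAACANNNTGTTC on both strands. Capitals also mark a further TGTTCT near the upstream end, and matches to the estrogen arm and to the GC box on the opposite strand.

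Sgk1: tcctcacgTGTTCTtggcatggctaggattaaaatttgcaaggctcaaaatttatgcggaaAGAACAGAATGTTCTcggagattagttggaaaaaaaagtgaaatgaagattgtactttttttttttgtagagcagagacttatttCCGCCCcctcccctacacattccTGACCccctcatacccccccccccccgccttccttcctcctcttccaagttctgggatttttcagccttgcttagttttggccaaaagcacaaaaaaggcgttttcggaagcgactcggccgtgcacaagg

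In estrus, Sgk1 was at 78.7, 66.4 and 75.03 CPM. INT had 45.2, 53.8, 50.9 and 65.7 CPM, SVX 51.5, 39.7, 45.6 and 36.9 CPM, SVX_VAS 45.9, 46.2, 46.1 and 48.3 CPM, and VAS 44.2, 53.0, 46.9 and 49.8 CPM. Every mated library was below every estrus library, although INT replicate 4 came within 1 CPM of the lowest. The log2 fold change was -0.44 ± 0.12 in INT (edgeR adjusted p = 0.00628), which passed the adjusted p but not the 1.5-fold limit and was therefore not called. Sgk1 fell in SVX (-0.76 ± 0.12, adjusted p = 6.76e-05), in SVX_VAS (-0.65 ± 0.12, adjusted p = 0.000294) and in VAS (-0.60 ± 0.12, adjusted p = 0.000582). The VAS change was 1.51-fold and slipped under the fold limit without CONT replicate 1 (-0.54), CONT replicate 4, VAS replicate 1 or VAS replicate 3, with an adjusted p of 0.00463 or less in each.

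Atp1b1, the beta subunit of the sodium pump, which brings the pump to the membrane, lies on chromosome 1 (164437109 to 164458355, minus strand). Its exons share 575 bases (18.7%) with Nme7 on the opposite strand, so its counts may hold reads of that gene if strand was not used. In estrus it was at 61.2, 71.6 and 61.7 CPM. INT had 138, 166, 165 and 295 CPM, SVX 161, 221, 225 and 187 CPM, SVX_VAS 225, 191, 247 and 193 CPM, and VAS 83.5, 96.2, 91.2 and 226 CPM. All mated libraries were above estrus, and VAS replicates 1, 2 and 3 were the lowest of them. The log2 fold change was 1.56 ± 0.32 in INT (2.94-fold; edgeR adjusted p = 0.000893), 1.61 ± 0.32 in SVX, 1.72 ± 0.32 in SVX_VAS and 0.94 ± 0.31 in VAS (adjusted p = 0.0181). The VAS call was lost without VAS replicate 4 (0.48, adjusted p = 0.0757), without CONT replicate 1 or 4, and in a fit of VAS and estrus alone (adjusted p = 0.0846), and the estimate was 1.29 without VAS replicates 2 and 3.

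Slc12a2, the cotransporter that loads epithelial cells with sodium, potassium and chloride, lies on chromosome 18 (57878678 to 57946821, plus strand). In estrus it was at 517, 404 and 416 CPM. INT had 328, 293, 327 and 268 CPM, SVX 320, 262, 255 and 280 CPM, SVX_VAS 279, 274, 249 and 268 CPM, and VAS 238, 181, 183 and 290 CPM. No mated library reached the estrus range, and VAS replicates 2 and 3 were the lowest. Slc12a2 fell in SVX (-0.68 ± 0.15, edgeR adjusted p = 0.00111), in SVX_VAS (-0.74 ± 0.15, adjusted p = 0.000649) and in VAS (-0.9997 ± 0.15, adjusted p = 4.83e-05, and -0.71 without VAS replicates 2 and 3). In INT it was at -0.55 ± 0.15 (adjusted p = 0.00628), short of the 1.5-fold limit, and 4 of the 7 fits that left out 1 library carried it past that limit (without CONT replicate 2 or 4, or INT replicate 1 or 3), as did edgeR's filterByExpr filter (-0.59, adjusted p = 0.00608). Without CONT replicate 1 the SVX change was -0.55 and was no longer called. Per 1000 CPM of the epithelial list, Slc12a2 was at 79.2 to 94.0 CPM in estrus and 93.9 to 379 CPM in the mated libraries, with a mated median of 238. By this measure the mated libraries were above estrus except VAS replicate 1 (93.9), which lay within the estrus range. The list itself was at 4296 to 5819 CPM in estrus and 685 to 2870 CPM in the mated libraries. The ratio therefore rises for any gene that falls less than the list. It was computed for Cftr, Scnn1b and Slc12a2 alone, so it does not set Slc12a2 apart from the other members.

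The question for the 3 groups with modified males was whether the members differed from mating with intact males. Against INT, 0 members and 0 genes were called in edgeR in any of the 3 comparisons (0% of all genes tested). At an unadjusted p under 0.05 there were 749 genes in SVX (4.35% of those tested), among them Cftr and Sgk1, 339 genes in SVX_VAS (1.97%) with 0 members, and 1831 genes in VAS (10.6%), among them Atp1b1 and Slc12a2. The threshold itself gives 5% where nothing differs, and the SVX and SVX_VAS shares were below that. DESeq2 called 3, 2 and 0 genes and limma-voom 0, 0 and 1661 genes in the same order, with 0 members in each. No member was free of overlap with INT in any comparison, beside 2.6%, 1.75% and 1.23% of all genes.

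Cftr was at -3.02 ± 1.34 in SVX against INT (edgeR adjusted p = 0.9997, 95% interval -5.87 to -0.17; -4.44 without SVX replicate 1 and -2.25 without INT replicate 1), at -0.69 ± 1.23 in SVX_VAS and at 0.06 ± 1.22 in VAS (interval -2.53 to 2.65). These intervals are wide, and a difference of several fold was not detectable in either direction for SVX_VAS and VAS. Ano1 was tighter, at 0.29 ± 0.21, 0.15 ± 0.21 and -0.14 ± 0.21, with intervals of -0.16 to 0.74, -0.30 to 0.60 and -0.59 to 0.30. Sgk1 was at -0.31 ± 0.11 in SVX (interval -0.55 to -0.07) and -0.21 ± 0.11 in SVX_VAS. Atp1b1 was at -0.62 ± 0.28 in VAS (edgeR adjusted p = 0.452) and Slc12a2 at -0.45 ± 0.14 (adjusted p = 0.452), and without VAS replicate 4 both were called (-1.08, adjusted p = 0.0348, and -0.60, adjusted p = 0.0396). Without VAS replicates 2 and 3 they were at -0.29 and -0.19 and were not called. Scnn1a, Scnn1b and Ano2 had estimates between -0.31 and 0.33 in the 3 comparisons. Without VAS replicates 2 and 3, the VAS estimates were -0.19, -0.58 and -0.51 in the same order, and those of Scnn1a and Ano2 had changed sign. The Ano2 estimate in SVX_VAS was 0.33, and it was 0.998 without INT replicate 4 and 0.12 without INT replicate 3.

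By group mean, Cftr was in the order estrus, VAS, INT, SVX_VAS and SVX (408, 86.2, 82.8, 51.3 and 10.3 CPM), and every neighbour after estrus overlapped the next. Ano1 ran from SVX through SVX_VAS, INT and VAS to estrus (213, 194, 175, 158 and 37.2 CPM), with overlap between all mated neighbours. The same held for Ano2, Scnn1a and Atp1b1, in which only estrus, the last in order, did not overlap its neighbour. For Sgk1 and Slc12a2 estrus was the first, and it did not overlap INT, the next in order. The 5 groups of Scnn1b all overlapped their neighbours.

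Levels can be compared between genes only per length, as CPM per kilobase of exon. In estrus the mean was 68.4 ± 9.56 for Slc12a2, 52.6 ± 3.53 for Cftr, 21.0 ± 1.90 for Atp1b1 and 14.96 ± 1.29 for Sgk1 (SD, n = 3). Scnn1b (6.20 ± 1.47) and Ano1 (5.96 ± 1.77) were at like levels, above Scnn1a (0.503 ± 0.0656) and Ano2 (0.0350 ± 0.00811). In INT, Atp1b1 was the first at 61.9 ± 22.8 (SD, n = 4), before Slc12a2 at 46.6 ± 4.45 and Ano1 at 28.0 ± 6.44. Sgk1 (11.0 ± 1.76), Cftr (10.7 ± 11.8) and Scnn1b (7.43 ± 1.80) followed, and then Ano2 (3.70 ± 2.76) and Scnn1a (1.34 ± 0.474). Thus Cftr had a higher level than Ano1 per length in estrus, and in INT the order of their means was reversed, although in INT replicate 1 Cftr (23.8) was still above Ano1 (21.1).

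**Figure D4:**
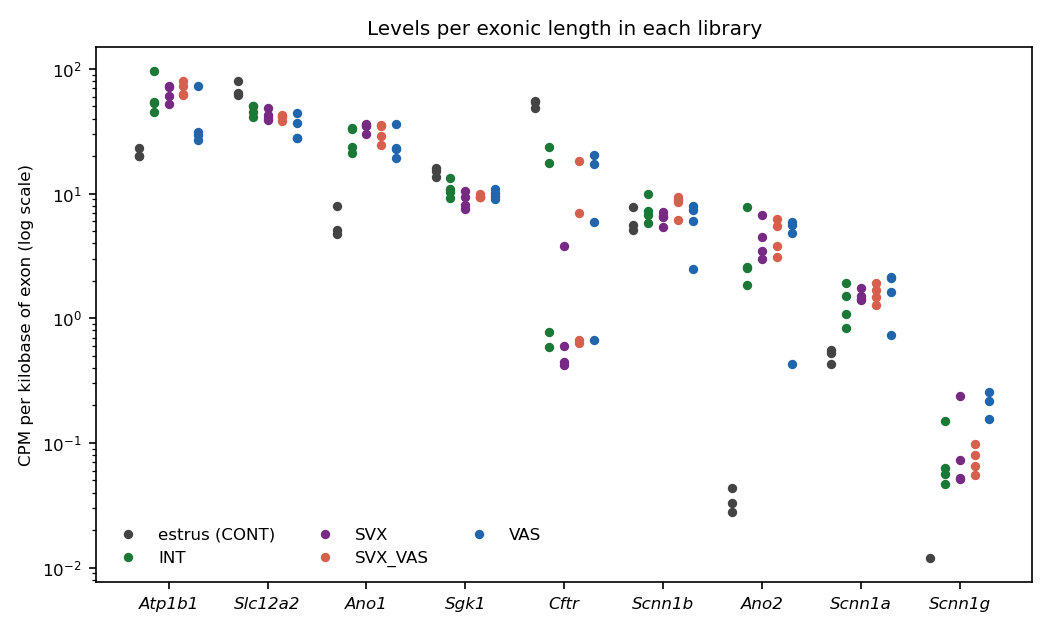
CPM per kilobase of exon (log scale) of the 9 genes in each library, 1 point per library, coloured by group, with genes ordered by their INT mean. Libraries with 0 reads cannot be drawn on a log scale, so Scnn1g has 1 estrus point and 3 VAS points.

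Other genes of the same transport steps were taken from 6 lists of 82 genes, of which 69 were tested. In INT against estrus 19 were called higher and 14 lower, 47.8% of those tested beside 33.6% of all genes, and the median log2 fold change was 0.13 beside -0.013 over all genes tested. Against the same estrus libraries, 22 were called higher and 17 lower in SVX (56.5% of those tested, beside 41.5% of all genes), 22 and 16 in SVX_VAS (55.1% beside 38.5%) and 24 and 17 in VAS (59.4% beside 40.4%). Among 14 regulators of ENaC, 1 was higher in INT, 3 were lower and 10 were not called (28.6% called), with a median of -0.041. St14, a membrane protease that activates other proteases at the cell surface, fell from 396 ± 30.8 CPM (SD, n = 3) to 111 ± 63.9 CPM (n = 4; log2 fold change -1.84 ± 0.56, edgeR adjusted p = 0.0133). Furin, the protease that cuts the alpha and gamma subunits, fell by 1.17 on the log2 scale, and Nr3c2, the mineralocorticoid receptor, rose by 0.74. Like Cftr, St14 was unequal in INT, at 179 and 152 CPM in replicates 1 and 2 and at 58.6 and 53.9 CPM in replicates 3 and 4.

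Of the other anoctamins, 6 of 8 were tested and 2 were called, both higher (Ano8 by 0.76 and Ano10 by 0.73), with a median of 0.38. That share, 33.3%, was near the 33.6% of all genes called in INT against estrus. In SVX, 2 of these anoctamins were called higher and 1 lower (50%, beside 41.5% of all genes). In SVX_VAS, 2 were higher and 2 lower (66.7% beside 38.5%), and in VAS 3 were higher and 0 lower (50% beside 40.4%). Among 14 tested chloride channels outside the members, 3 rose and 6 fell (64.3% called), with a median of -0.31. Clca2 (1.76) and Lrrc8c, a subunit of the volume-regulated anion channel (1.42), rose, and the subunits Lrrc8d (-1.34) and Lrrc8b (-1.04) fell, so subunits of that channel changed in both directions. Of 9 tested sodium pump subunits and FXYD proteins, the small regulators of the pump, 5 rose and 1 fell (66.7% called), with a median of 1.33. Fxyd5 rose (1.90 ± 0.20), and Fxyd3 fell from 161 ± 5.30 to 66.2 ± 25.1 CPM (-1.28 ± 0.34).

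Of 7 tested cation-chloride cotransporters, 3 rose and 0 fell (42.9% called beside 33.6% of all genes, median 0.73), with Slc12a8 at 2.55 ± 0.28 and Slc12a4, which carries potassium and chloride out of cells, at 1.03 ± 0.12. Slc12a2, the member of this family described above, was lower in level. Among 19 tested genes of bicarbonate, sodium-proton and anion exchange, 5 rose, 4 fell and 10 were not called (47.4% called, median 0.13). Carbonic anhydrases, which make bicarbonate, went in both directions. Car12 fell from 790 ± 47.1 to 179 ± 153 CPM (-2.14 ± 0.56, edgeR adjusted p = 0.00520) and Car2 from 691 ± 67.1 to 224 ± 158 CPM (-1.63 ± 0.63, adjusted p = 0.0421), whereas Car4 was at 0 to 0.0753 CPM in estrus and at 2.76 to 5.70 CPM in INT. Slc9a2, a sodium-proton exchanger, rose by 2.13 ± 0.51. Of the named genes, Slc12a8, Car4 and Slc9a2 were under 3 CPM in every estrus library and passed the filter through mated libraries alone. The same held for Slc12a5, a cotransporter also called higher, at 1.95 ± 0.0543 CPM in estrus (SD). The 3 cotransporters that rose thus include Slc12a5 and Slc12a8, and their share called has to be read with that. A fall could hardly have been called for any of these genes, and they are part of the counts called higher. Car12 in INT was at 375 and 224 CPM in replicates 1 and 2 and at 79.0 and 38.8 CPM in replicates 3 and 4, and Car2 was likewise higher in replicates 1 and 2 (358 and 361 CPM against 70.4 and 105 CPM).

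**Figure D5:**
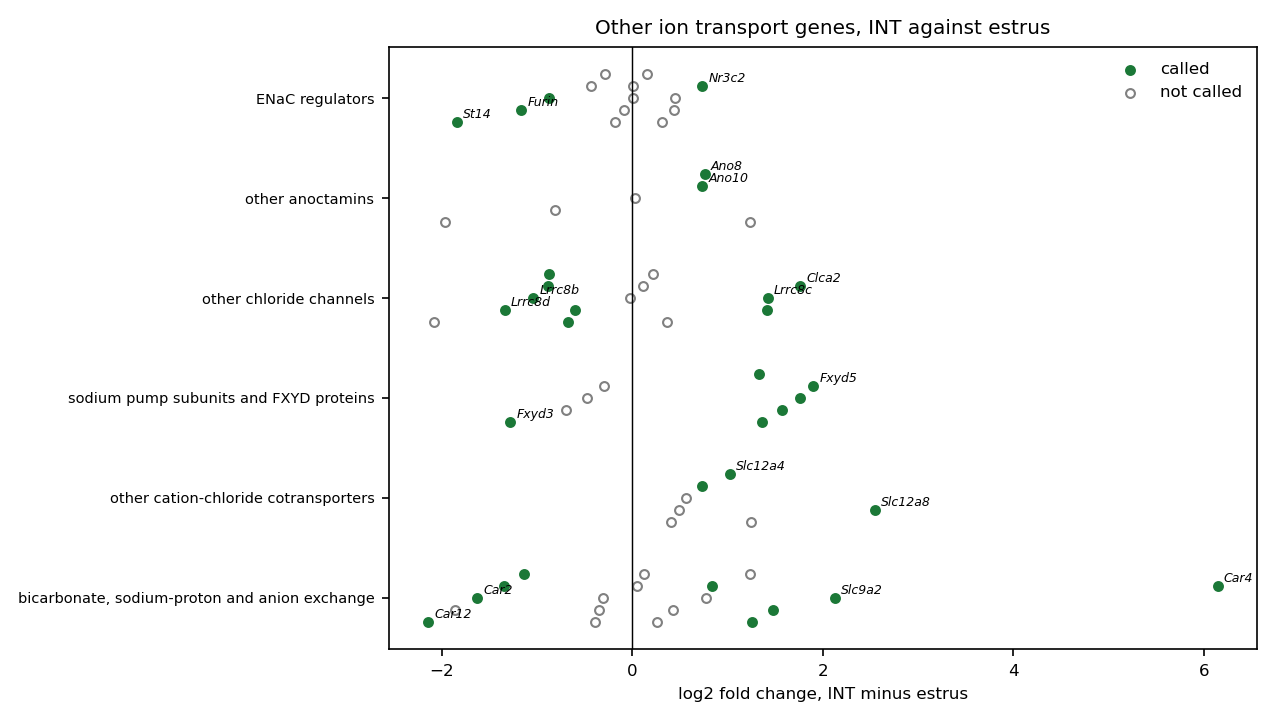
Log2 fold change of INT against estrus for the 69 tested genes of 6 transport lists, 1 point per gene, with the named genes other than Slc12a5 labelled. Values range from -2.14 for Car12 to 6.15 for Car4, and genes of 4 of the lists were called in both directions.

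The tested genes with the pattern most like each member over the 19 libraries were taken by Pearson's r of log2 CPM, as a description. All points share the step from 3 estrus to 16 mated libraries, the same depth and the same scaling. For Cftr they were Lamb3 (r = 0.993), Gm15595 (0.993), a processed pseudogene that lies inside Cftr on the same strand with 0 shared exonic bases, and Arhgap40 (0.990), and over the 16 mated libraries alone r was 0.990, 0.989 and 0.985. Ano1 was followed by Hoxd4 (0.995), Tshz3 (0.995) and Tshz1 (0.994), and Ano2 by Slc24a4 (0.991), B3gnt5 (0.991) and Rgs16 (0.989). For Scnn1a they were E130308A19Rik (0.968), Ephb1 (0.966) and Suox (0.966), and for Scnn1b they were Pof1b (0.880), Slc6a14 (0.868) and 4931406C07Rik (0.83). Atp1b1 was followed by Zmpste24 (0.987), Gstm2 (0.981) and Pcx (0.976), and Slc12a2 by Sgms2 (0.946), Acsl4 (0.945) and Sec11a (0.937). Sgk1 was followed by Keap1 (0.865), Baiap2 (0.854) and Trim14 (0.845), and for these r over the mated libraries alone was 0.576, 0.544 and 0.502.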

How the data were processed

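Endometrial RNA of 19 pooled samples was measured. Per the labels and the study's methods, the authors used a stranded total RNA kit and paired-end reads, trimmed adapters, aligned with STAR to GRCm38 and counted with featureCounts, and the strand setting is not given in the sources used here. The deposited values were raw counts per gene (49089 genes), with each gene's length in bases as the other deposited value used. Positions and symbols came from GENCODE for GRCm38 (48349 genes had a symbol), and promoter windows from RefSeq (GRCm38.p6).

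Counts were scaled with TMM factors and fitted with edgeR 4.0.16 (glmQLFit, glmQLFTest) and limma 3.58.1 in R 4.3.3, with all 5 groups in 1 fit, no replicate block and Benjamini-Hochberg adjustment over 17222 genes. The fit was tested on simulated data. Estimates are log2 fold changes with SE and 95% intervals, and log2 CPM used a prior count of 2. Floors of 3 counts cover counting error only. DESeq2 1.42.0, limma-voom, other filters, fits of 2 groups, a replicate block, calls without the fold limit and leaving out libraries were the alternatives. The fit without VAS replicates 2 and 3 was chosen after seeing the data. The members, 6 transport lists and 11 marker lists were chosen with earlier results of these data known. The rule for names took, from each transport list, up to 2 called genes that rose most and 2 that fell most in INT against estrus, and for each member the 3 tested genes best correlated with it. One gene that this rule names is not reported here. Figures were drawn with Python 3.11.15 and matplotlib 3.10.9.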

Additional observations from a re-analysis of the deposited data

Results flagged for a closer look

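In 6 instances, 1 library of a group of 4 lay far from the other 3 by Dixon's test at its 95% critical value. The ratio was computed for 36 combinations of gene and group, of which chance alone gives about 1.8. SVX replicate 1 had 29.6 CPM of Cftr, where the other SVX libraries had 3.27 to 4.69 CPM. INT replicate 4 had 42.1 CPM of Ano2, where the others had 10.03 to 13.96 CPM. For Scnn1g, INT replicate 1 had 0.451 CPM beside 0.139 to 0.188 CPM, and SVX replicate 4 had 0.712 CPM beside 0.155 to 0.218 CPM, and these rest on 6 and 10 reads. SVX_VAS replicate 4 had 48.3 CPM of Sgk1 beside 45.9 to 46.2 CPM, a small gap within a narrow group. VAS replicate 4 had 226 CPM of Atp1b1, where the other VAS libraries had 83.5 to 96.2 CPM.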

How the results depend on the processing

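Against estrus, members called were 4 to 5 in INT, 6 to 7 in SVX, 6 to 7 in SVX_VAS and 4 to 6 in VAS when 1 library was left out, and genes called were 4913 to 6260, 6462 to 7300, 5763 to 6854 and 6160 to 8236. Against INT, genes called in VAS were 0 to 576 and members 0 to 2 (576 genes without VAS replicate 1, and 134 genes and 2 members without VAS replicate 4), and both stayed at 0 in SVX and SVX_VAS. DESeq2 called 3 genes in SVX and 2 in SVX_VAS, and limma-voom 1661 in VAS, and the cause was not tested. Ano2 in VAS against INT was 0.18, but -0.053 with limma-voom and -0.51 without VAS replicates 2 and 3, where Scnn1a was -0.19 in place of 0.30. With 1 library left out, uncalled estimates changed sign for Scnn1b in SVX (-0.072 to 0.26) and VAS (-0.20 to 0.20) against estrus, and against INT for Atp1b1 (-0.072 to 0.34) and Ano2 (-0.024 to 0.92) in SVX, Cftr in SVX_VAS (-1.96 to 0.076), and Cftr (-0.42 to 0.82) and Ano2 (-0.038 to 0.85) in VAS. Of the members' estimates, 835 kept direction and call under an alternative, 13 gained a call, 13 lost one and 19 changed sign. The gains include Sgk1 and Slc12a2 in INT against estrus when the fold limit itself was dropped.

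With the replicate number as a block, 5594, 6911, 6399 and 6769 genes were called in INT, SVX, SVX_VAS and VAS against estrus and 0 against INT, and no member's call changed. Libraries of the same number showed no clear tendency to deviate together. Over 36 pairs r was -0.69 to 0.58, with a median of 0.047 beside -0.034 for other pairs. Of the 19 libraries, 4 were closest to one of their own number. Whether the numbers mark a shared day or batch was not tested. The few reads of Scnn1g and of Ano2 in estrus limit what depth can show.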
